A study of Pan troglodytes with 217 samples.

Results

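The genes described here encode apolipoproteins and carrier proteins that yolk sac endoderm and liver secrete, together with MTTP, which loads lipoproteins with lipid inside the cell. They are APOA1, APOA2, APOB, APOC1, APOE, MTTP, TTR, RBP4 and AFP, which were given as a list of 9 symbols and matched to a count matrix of 33729 chimpanzee Ensembl identifiers. All 9 matched. APOA1 had 2 identifiers, whose reads were summed. The list uses no measured value, though it was drawn up with earlier results of these data known. Its genes took no part in grouping the cells.

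The study derived chimpanzee naive pluripotent stem cells and asked which embryonic lineages they can form. These iPSCs were kept in AE6, which is N2B27 with PD032590, XAV939, Gö6983, human LIF, Activin-A, IL6 and the EZH2 inhibitor EPZ-6438. From them the authors made blastoids, which are blastocyst-like aggregates, in N2B27 that held A83, LPA and Y-27632 during the first steps, with PD added at the start, and no additive at the end. On day 4 the blastoids were taken apart, and single cells were sequenced by SMART-seq2, a plate method that reads whole cDNA and counts no molecules. Every cell shares this history. From which blastoid, line or batch a cell came is not among its labels. The cells are therefore 1 sample without replicates, and no test was made. Most of the mural trophectoderm had been cut away beforehand, so the shares of cells do not stand for whole blastoids.

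Apolipoproteins coat lipid particles and direct their assembly, uptake and recycling. APOB forms the backbone of large lipoproteins, and MTTP loads it with lipid in the endoplasmic reticulum. APOA1 and APOA2 are the main proteins of high-density lipoprotein, and APOE and APOC1 are small exchangeable proteins that many cell types make. TTR carries thyroid hormone and, together with RBP4, retinol, and AFP is the fetal counterpart of albumin. The visceral endoderm, which descends from the hypoblast, makes many of these proteins before there is a liver.

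Cells with at least 8000 detected genes and at least 4000 reads were used, and 24 cells fell short of this. The cells nearest to this limit had 8199 genes on the inside and 7984 on the outside. Totals ranged from 1679888 to 25630392 reads per cell, with a median of 3960857. Leiden clustering gave 32 hypoblast-like cells (16.6% of cells, exact 95% interval 11.6% to 22.6%), 50 epiblast-like cells (25.9%) and trophectoderm-like cells (57.5%). The trophectoderm-like cells were made of a larger cluster of 72 cells led by RGS13 and OLR1 and a smaller cluster of 39 cells led by PTPRE and CYP19A1. Median depth was close in the classes, with 3978822, 3951119 and 3960857 reads per hypoblast-, epiblast- and trophectoderm-like cell. The clusters were named by their levels of 10 markers per lineage, so the order of these markers is partly given by the naming. All 10 epiblast markers and all 10 trophectoderm markers were highest in their own class. Of 10 hypoblast markers 8 were, while LAMA1 was highest in trophectoderm-like cells and KIT in epiblast-like cells. Clustering with the members included placed every cell in the same class.

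The hypoblast-like cells were not uniform. FOXA2, an endoderm transcription factor, had a read in 15 of them and GATA4 in 21. At 10 CPM (reads of a gene per 1000000 reads counted on all genes), 20 of the 32 cells had at least 3 epiblast markers and 22 had at least 3 trophectoderm markers. Such mixing was not particular to this class, since 25 of 50 epiblast-like cells had at least 3 trophectoderm markers. At least 3 markers of another lineage were found in 28 hypoblast-like, 26 epiblast-like and 15 trophectoderm-like cells. The summed level of the 10 epiblast markers ranged from 87.9 to 1921 CPM in hypoblast-like cells, with a median of 474 CPM and ARGFX at 0. It ranged from 1011 to 6032 CPM in epiblast-like cells. Markers of definitive endoderm or liver, a list that holds HNF4A, summed to 0 to 162.3 CPM in hypoblast-like cells. Their median was 31.7 CPM, CER1 was at 0, and the highest sum was HNF4A alone. For amnion the sum ranged from 0 to 45.98 CPM and for mesoderm from 0 to 3.80 CPM. Summed neural markers ranged from 0 to 733 CPM with a median of 34.4 CPM and SOX1 at 0. Doublets were not called. The part of such mixed cells in the values that follow was not tested, other than by leaving them out where this is said.

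APOE (ENSPTRG00000011127) was found in every cell of every class. Over the 32 hypoblast-like cells its level ranged from 66.6 to 935 CPM with a median of 271 CPM. The 50 epiblast-like cells held 38.5 to 1927 CPM with a median of 320 CPM. In the trophectoderm-like cells the range was 8.49 to 2531 CPM and the median 174.4 CPM. The classes overlapped over nearly their whole ranges, and no hypoblast-like cell exceeded the highest cell of either other class. APOE was thus not limited to a class, and all cells but 1 had at least 10 CPM of it.

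With the reads of a class pooled, APOE stood at 423, 385 and 268 CPM in the epiblast-, hypoblast- and trophectoderm-like class. The exact Poisson 95% intervals, which cover counting error only, were 420 to 425, 382 to 388 and 267 to 270 CPM in this order. The ratio of hypoblast- to epiblast-like cells was 0.911, and 1.04 without the epiblast-like cell at 1927 CPM, which held 15.7% of the reads of its class and without which that class stood at 369 CPM. The order of these classes thus turned with 1 cell. With 15 neighbours in the clustering this same cell joined the hypoblast-like class, which left 49 epiblast-like cells, and the ratio was 1.27. The order turned also without mixed cells, at 1.11. The ratio of hypoblast- to trophectoderm-like cells was 1.44. Set against the spread over cells, neighbours in this order did not separate. The interquartile range was 191.8 to 607 CPM in hypoblast-like cells. It was 246.3 to 497 CPM in epiblast-like and 101.9 to 283 CPM in trophectoderm-like cells. A single trophectoderm-like cell at 2531 CPM held 20.1% of the APOE reads of its class. It lay in the smaller cluster, whose pooled level was 365 CPM with it and 237.9 CPM without it, beside 207.8 CPM in the larger cluster.

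APOC1 (ENSPTRG00000011128), which lies next to APOE on the chromosome, was graded between the classes. Its level in hypoblast-like cells ranged from 0 to 128.01 CPM with a median of 12.2 CPM. In epiblast-like cells it ranged from 0 to 21.8 CPM, with a median of 2.39 CPM. In trophectoderm-like cells it ranged from 0 to 33.6 CPM, with a median of 2.93 CPM. Of the 32 hypoblast-like cells, 13 lay above every epiblast-like cell and 11 above every trophectoderm-like cell. The remaining hypoblast-like cells overlapped with the other classes, and 3 had no read.

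Pooled, APOC1 reached 33.9 CPM in hypoblast-like cells (95% interval 32.9 to 34.9), 3.42 CPM in epiblast-like cells (3.18 to 3.68) and 4.54 CPM in trophectoderm-like cells (4.35 to 4.72). This was 9.90 times the epiblast-like level (counting interval 9.15 to 10.7) and 7.46 times the trophectoderm-like level (7.10 to 7.85). Detection differed less than level. A read was present in 29 of 32 hypoblast-like cells (90.6%, 74.98% to 98.02%), 38 of 50 epiblast-like cells (76%, 61.8% to 86.9%) and 85 trophectoderm-like cells (76.6%, 67.6% to 84.1%). At 10 CPM the counts were 17, 4 and 15 cells. With each cell thinned to 2532312 reads, 23 of 25, 36 of 48 and 72 of 100 cells had a read. Within the trophectoderm-like class APOC1 was 6.71 CPM in the smaller and 3.17 CPM in the larger cluster, with a read in 36 of 39 and 49 of 72 cells.

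**Figure D1:**
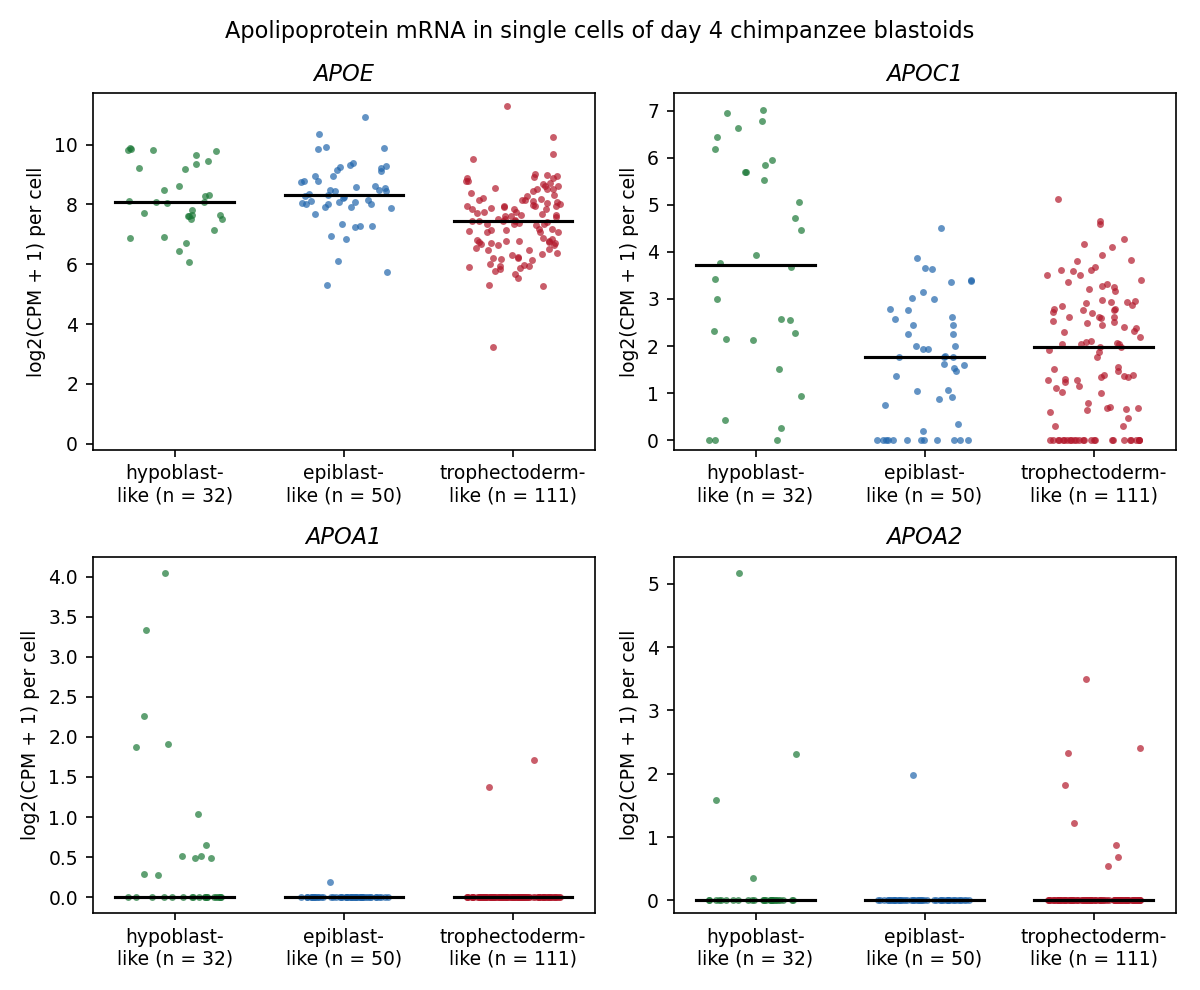
Levels of APOE, APOC1, APOA1 and APOA2 in single cells, as log2(CPM + 1) on the vertical axis of each panel, for 32 hypoblast-like cells, 50 epiblast-like cells and the 72 and 39 trophectoderm-like cells together; each point is a cell and the bar is the median. APOE is present throughout, APOC1 reaches its highest values in hypoblast-like cells, and APOA1 and APOA2 are at 0 in most cells of every class.

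APOA1 (ENSPTRG00000004316 and ENSPTRG00000046016) was found in 13 of 32 hypoblast-like cells (40.6%, exact 95% interval 23.7% to 59.4%). Of 50 epiblast-like cells 1 had a read (2.00%, 0.0506% to 10.6%), and so did 2 trophectoderm-like cells (1.80%, 0.219% to 6.36%). Among the 13 positive hypoblast-like cells, the 5 highest held 15.5, 9.12, 3.80, 2.76 and 2.66 CPM, and the other 8 lay between 0.211 and 1.05 CPM. The positive epiblast-like cell had 0.135 CPM, below all 13, and the trophectoderm-like cells had 2.27 and 1.58 CPM. The reads were few. All hypoblast-like cells together had 0.902 CPM, against 1 read in epiblast-like and 25 reads in trophectoderm-like cells. The ratio to trophectoderm-like cells was 18.6 (counting interval 12.02 to 29.99), and that to the single epiblast-like read was 194.2 (34.2 to 7735). With the epiblast-like class set to 3 reads, as in the calls made further on, the latter was 64.7. Without the cell with the most reads the hypoblast-like level was 0.679 CPM. After thinning, 7 of 25 hypoblast-like, 1 of 48 epiblast-like and 2 of 100 trophectoderm-like cells kept a read.

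APOA2 (ENSPTRG00000001580), the partner of APOA1, was found in 4 hypoblast-like cells, at 34.9, 3.99, 2.01 and 0.276 CPM. A single epiblast-like cell had 2.94 CPM. In trophectoderm-like cells 8 had a read, from 0.459 to 10.3 CPM, of which 6 lay in the smaller cluster. The shares of positive cells, 12.5% (3.51% to 28.99%), 2.00% (0.0506% to 10.6%) and 7.21% (3.16% to 13.7%), overlapped in their intervals. The pooled level of 1.53 CPM in hypoblast-like cells, against 0.0604 and 0.157 CPM in the other classes, rested on 1 cell with 84.3% of the reads. Without that cell it was 0.250 CPM.

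The genes needed to build large lipoproteins were found in few cells. APOB (ENSPTRG00000011699) had 6 reads in 1 hypoblast-like cell, 4 reads in 2 epiblast-like cells and 49 reads in 8 trophectoderm-like cells, where the highest cell had 3.99 CPM. Its pooled levels were 0.0467, 0.0186 and 0.0949 CPM. The ratio of hypoblast- to trophectoderm-like cells was 0.492 with a counting interval of 0.172 to 1.15, so a difference was not detectable at this depth. MTTP (ENSPTRG00000023619) had reads in 2 cells of each class. They held 5.25 and 2.31 CPM in the hypoblast-like, 1.14 and 0.175 CPM in the epiblast-like and 6.50 and 0.246 CPM in the trophectoderm-like class. Its pooled level was 0.233 CPM in hypoblast-like cells and 0.0881 CPM without the highest cell, beside 0.0232 and 0.0407 CPM in the other classes.

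The carrier proteins were at the limit of detection or below it. TTR (ENSPTRG00000009949) had 11 reads in 1 hypoblast-like cell, at 2.31 CPM, and 1 read in 1 epiblast-like cell. No trophectoderm-like cell had a TTR read, so that, by the limit of 3 counts, at most 2.703% of such cells would have one. RBP4 (ENSPTRG00000002768) had no read in any cell, which by the same limit allows up to 1.55% of all cells and up to 9.38% of the 32 hypoblast-like cells with a read. Cells that express these genes below detection are not limited by it. AFP (ENSPTRG00000016151) had none in hypoblast- and epiblast-like cells and 1 read in each of 2 trophectoderm-like cells. ALB, the neighbour of AFP, was also close to 0, with 1, 5 and 65 reads in the classes, each in at most 2 cells.

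**Figure D2:**
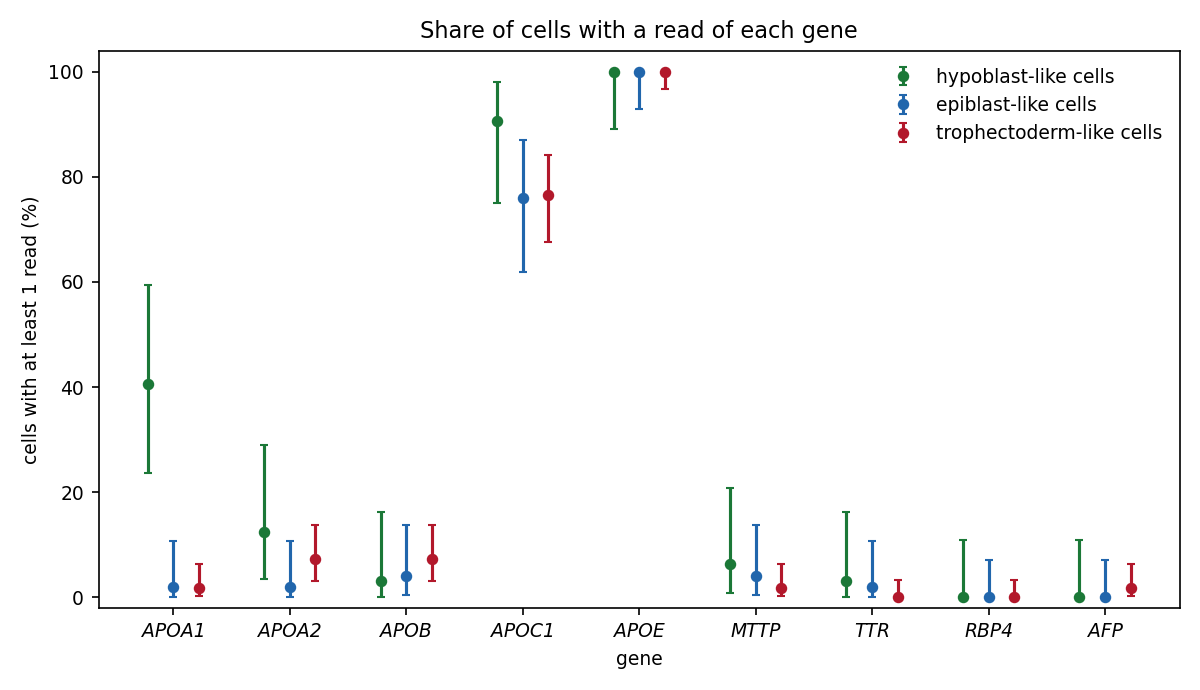
Share of cells with at least 1 read of each of the 9 genes, in percent, for the hypoblast-, epiblast- and trophectoderm-like class; points are shares and bars are exact 95% intervals for counting error. APOA1 is the gene whose hypoblast-like interval (23.7% to 59.4%) does not meet those of the other classes (up to 10.6% and 6.36%).

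Counted by a fold of at least 4 in pooled level over both other classes, with more than 3 reads, 5 of the 8 members with a read were higher in hypoblast-like cells. These were APOA1, APOA2, APOC1, MTTP and TTR. By this rule 2.84% of all 26592 genes with a read were higher in hypoblast-like cells. No member was higher in epiblast-like cells, where 5.82% of genes were, or in trophectoderm-like cells, where 3.82% were. The 5 calls differ in what stands behind them. Leaving out the cell numbered 84 ended the calls of APOA2, MTTP and TTR and left 2, and leaving out 1 other cell ended that of MTTP. Only APOC1 and APOE had a read in at least 20 cells, and of these APOC1 was called, with 0.964% of 15561 genes called by the same rule. At 10-fold APOA1 alone was called. The median of the cells was 0 for 7 of the 9 genes. That of APOC1 was 5.08 times the epiblast-like and 4.15 times the trophectoderm-like median, and with 1 CPM added to each median these ratios were 3.88 and 3.35, under 4-fold.

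In the hypoblast-like class the members rarer than APOA1 were found only in cells with APOA1. All 4 hypoblast-like cells with APOA2, both with MTTP, the one with TTR and the one with APOB also had APOA1 reads. These cells were 30.8%, 15.4%, 7.69% and 7.69% of the 13 APOA1 cells. Of the 13 hypoblast-like cells with a read of APOA1, APOA2, APOB, MTTP or TTR, 4 held more than 1 of them. In the other classes only 1 epiblast-like and 2 trophectoderm-like cells had APOA1, which limits such overlap there. The 7 epiblast-like cells with a read of APOA1, APOA2, APOB, MTTP or TTR held 1 of these genes each. Of 18 such trophectoderm-like cells 2 held more than 1, and 1 of the 8 cells with APOA2 and none of the 8 with APOB had APOA1. The difference between classes was not tested. Cell 84 held 6 members. It had 121.98 CPM of APOC1, 309 of APOE, 34.9 of APOA2, 1.05 of APOA1 and 2.31 each of MTTP and TTR, from 4763204 reads. Its FOXA2 level was 86.1 CPM, its GATA4 level 200.9 CPM and its PDGFRA level 949 CPM, and it had 6.51 CPM of NANOG and 102.9 CPM of POU5F1. It is also a mixed cell, since 9 of 10 hypoblast markers but also 4 of 10 trophectoderm markers reached 10 CPM, with KRT19 at 1864 CPM and GATA3, ABCG2 and GATA2 at 20.2, 13.4 and 11.5 CPM. A hypoblast-like cell had a median of 2 members with a read, and so did the cells of the other classes. The upper end differed, with up to 6 in hypoblast-like, 3 in epiblast-like and 4 in trophectoderm-like cells. At least 3 members were present in 12 of the 32 hypoblast-like cells, and all 12 had APOA1, APOC1 and APOE.

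Within the hypoblast-like class, APOC1, APOA1 and APOE were set against the endoderm genes, the markers of other lineages and depth, and the endoderm genes were not alike. Across the 32 cells, which share 1 preparation, Spearman's correlation of log2(CPM + 1) is given as a description. APOC1 had a correlation of 0.71 with FOXA2, 0.68 with GATA4, 0.59 with HNF4A, 0.47 with PDGFRA and 0.39 with SOX17, but 0.23 with GATA6 and -0.28 with KIT. With NANOG it was -0.39, with POU5F1 -0.41, and with the total reads of the cell 0.03. APOA1 had a correlation of 0.73 with FOXA2 and 0.61 with GATA4, 0.25 each with SOX17 and PDGFRA, 0.11 with GATA6, -0.24 with KIT, and -0.15 with total reads. Of the 13 APOA1 cells 11 had FOXA2, 12 had GATA4, 12 had SOX17 and 7 had NANOG, while in the whole class these were found in 15, 21, 24 and 24 cells. APOE had a weaker correlation with FOXA2, 0.50, with HNF4A, 0.21, and with SOX17, 0.18, and with GATA6 and KIT it was -0.03 and -0.07. APOC1 also had a correlation of 0.57 with the summed markers of definitive endoderm or liver and of 0.55 with the summed neural markers. HNF4A belongs to the first of these lists and made up its highest sum, 162.3 CPM. The 0.57 is therefore not separate from the 0.59 with HNF4A. With the summed hypoblast markers the correlation was 0.69 for APOC1, 0.57 for APOA1 and 0.49 for APOE, and with the summed epiblast markers -0.41, -0.49 and -0.40. With the summed trophectoderm markers it was 0.25, 0.44 and 0.38 in the same order, and with KRT19, a keratin among these markers, 0.36, 0.53 and 0.48. Other markers of this list had lower or negative values, with -0.47, -0.20 and -0.49 for TFAP2A, -0.29, -0.16 and -0.16 for GATA2 and -0.18, -0.08 and -0.08 for GATA3. CDX2 had -0.14, 0.19 and -0.08, and ABCG2 -0.03, 0.39 and 0.04. Only 4 hypoblast-like cells lacked 3 markers of any other lineage at 10 CPM. All 4 had APOA1, from 0.211 to 15.5 CPM, and APOC1, from 32.5 to 72.1 CPM, and none had a read of APOA2, APOB, MTTP or TTR.

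**Figure D3:**
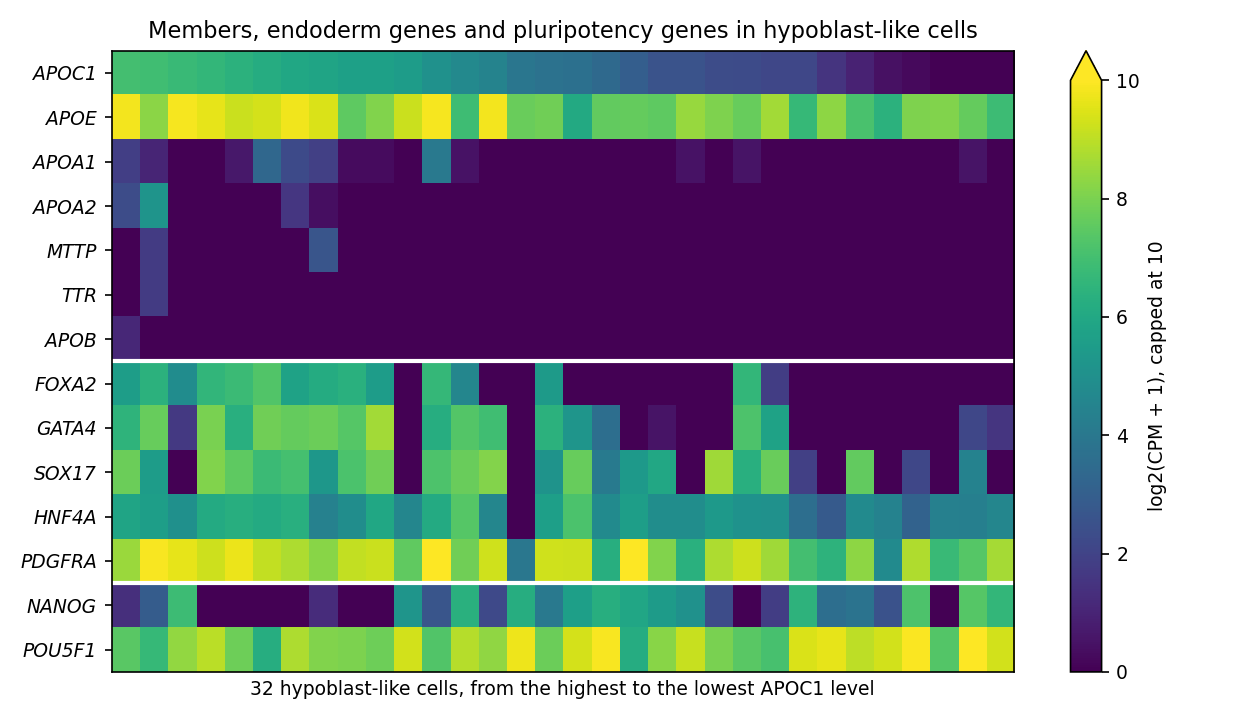
The 32 hypoblast-like cells as columns, ordered from the highest to the lowest APOC1 level, with log2(CPM + 1) as colour for the 7 members with a read (top), 5 endoderm genes (middle) and NANOG and POU5F1 (bottom). APOA1, APOA2, MTTP, TTR and APOB reads lie mostly among the cells with high APOC1, where FOXA2 and GATA4 reads are also frequent.

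APOE and APOC1 varied together in the hypoblast-like cells and not elsewhere to the same degree. Spearman's correlation between them was 0.58 over 32 hypoblast-like cells and 0.65 after thinning, but -0.40 over the 4 cells that lacked markers of a second lineage. It was 0.23 over 50 epiblast-like and 0.02 over all trophectoderm-like cells, with -0.06 and -0.05 in the larger and smaller cluster. These differences were not tested. The genes most like APOC1 across hypoblast-like cells were RSPO3, a WNT agonist that is itself a marker used for the class, at 0.84, LGALS2 at 0.82 and FRZB, a secreted WNT antagonist, at 0.77. Those most like APOE were CD63 and CTSB, which belong to late endosomes and lysosomes, at 0.77 and 0.70, and PLP2 at 0.69. Among 10428 genes, 2.57% reached a correlation of 0.5 with APOC1 and 1.28% with APOE.

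**Figure D4:**
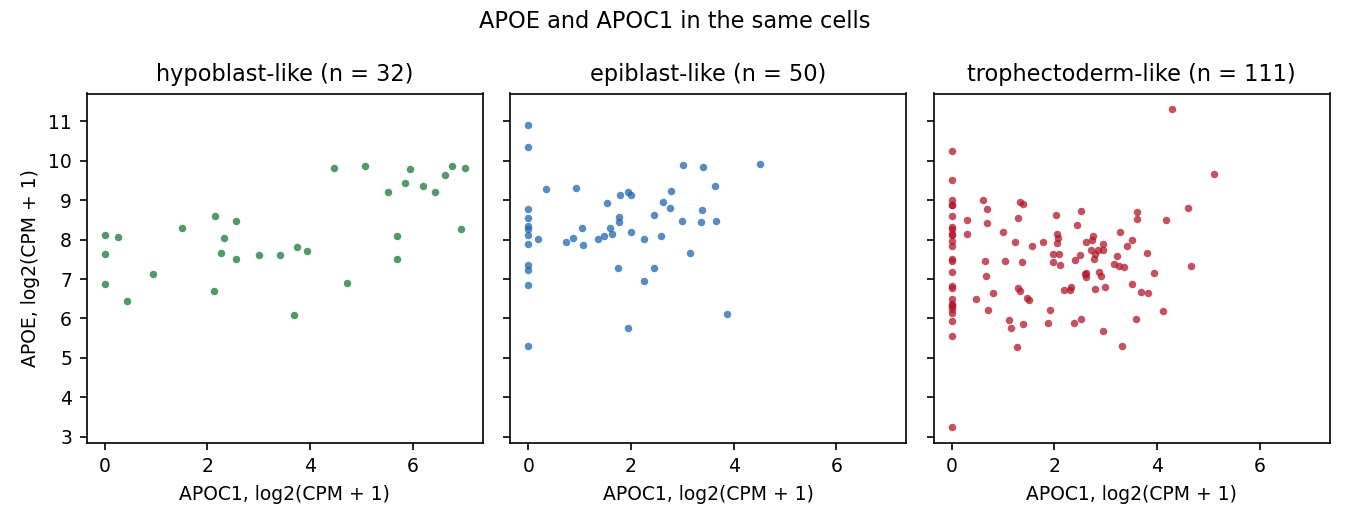
APOE against APOC1 in the same cells, both as log2(CPM + 1), in a panel for each class, where a point is a cell. The hypoblast-like cells rise from lower left to upper right (Spearman's correlation 0.58 over all 32, but -0.40 over the 4 without markers of a second lineage), while epiblast-like (0.23) and trophectoderm-like cells (0.02) form broader clouds.

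The neighbours of the members on the chromosome, taken from the gene order of the RefSeq assembly NHGRI_mPanTro3-v2.0_pri, mostly did not share their pattern. TOMM40, a mitochondrial import channel on the other side of APOE, was even across classes at 404, 416 and 421 CPM in hypoblast-, epiblast- and trophectoderm-like cells, and its correlation with APOE over hypoblast-like cells was -0.47. APOC4, on the other side of APOC1, had reads in 1 hypoblast-like cell, 6 epiblast-like cells and no trophectoderm-like cell. APOC3, next to APOA1, had none in any class at either of its 2 identifiers, and SIK3 on the other side was at 1.03, 0.916 and 1.00 CPM. The gene order also holds a near copy, APOC1A, beside APOC1, and reads of APOC1 and its copy may not be told apart where their sequences match. APOA1, APOC3, APOA4 and APOA5 have 2 identifiers each, and where only uniquely mapped reads are counted, a read that matches both is left out. The number of such reads was not tested.

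Other genes of the pathway were read from lists, in genes with a read in at least 20 cells. A gene can reach this minimum through the class where it is high, as some genes called below did. Over all 15561 such genes the median log2 ratio was -0.20 for hypoblast- over epiblast-like and -0.05 for hypoblast- over trophectoderm-like cells. By the 4-fold rule 0.964%, 4.6% and 3.36% of them were higher in hypoblast-, epiblast- and trophectoderm-like cells. Of 13 further apolipoproteins, 2 were measured in this way, APOO and CLU, and neither was called. CLU, the secreted chaperone clusterin, was at 6.95, 22.2 and 27.1 CPM in the hypoblast-, epiblast- and trophectoderm-like class. In the last of these the smaller cluster had 51.3 CPM and the larger 11.9 CPM. APOM, which carries sphingosine phosphate on lipoproteins, was in 8 hypoblast-like cells at 1.49 CPM pooled, in no epiblast-like cell and in 10 trophectoderm-like cells at 0.250 CPM.

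None of 11 genes for lipoprotein assembly and lipid loading was called in any class. Their median log2 ratio was 0.32 for hypoblast- over epiblast-like and 0.33 for hypoblast- over trophectoderm-like cells. DGAT2, which makes triglyceride, came nearest, at 41.8, 11.2 and 0.434 CPM in hypoblast-, epiblast- and trophectoderm-like cells. SAR1B, a GTPase of the vesicles that export large lipoproteins, had reads in all 32 hypoblast-like cells and stood at 171.3, 94.8 and 169.7 CPM. SAR1B was thus present in hypoblast-like cells with no read of APOB or MTTP.

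Of 19 genes for lipoprotein uptake and lipid efflux, CUBN was called in hypoblast-like and LRP2 in trophectoderm-like cells. These encode cubilin and megalin, endocytic receptors that work together. The median log2 ratio of the list was -0.65 for hypoblast- over epiblast-like and -0.08 for hypoblast- over trophectoderm-like cells. LRP2 was at 162.2 CPM in trophectoderm-like cells, against 23.6 CPM in hypoblast-like and 15.6 CPM in the epiblast-like class. It was at 235.8 CPM in the larger and 44.97 CPM in the smaller trophectoderm-like cluster. CUBN was low, with 0.817 CPM from 4 hypoblast-like cells. It had a read in exactly 20 cells of all classes, so that without any of these 4 cells it fell under the minimum of 20 cells. ABCA1, which loads cholesterol onto APOA1, was highest in epiblast-like cells at 140.99 CPM, with 38.8 CPM in the hypoblast-like and 12.4 CPM in the trophectoderm-like class.

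The other secreted plasma proteins did not form a common pattern, with 6 of 20 in at least 20 cells, median log2 ratios of -1.27 and 0.52 in the same order, and 1 called in each class. F2, prothrombin, was called in hypoblast-like cells at 1.07 CPM from 8 cells, against 0.167 and 0.259 CPM, and it too had a read in exactly 20 cells. SERPINF1 was called in epiblast-like cells, at 36.97 CPM against 3.30 and 7.52 CPM in the hypoblast- and trophectoderm-like class. SERPINC1, antithrombin, was called in trophectoderm-like cells. It was at 12.7 CPM there with a read in 43 cells, 38 of them in the larger cluster, at 0.279 CPM in epiblast-like cells, and had no read in hypoblast-like cells. FN1, fibronectin, was at 130.6, 35.1 and 5.29 CPM in the hypoblast-, epiblast- and trophectoderm-like class and missed the call against epiblast-like cells with a ratio of 3.71. The hypoblast-like cells were uneven, with the highest at 1707 CPM. The medians of the cells were 13.2 and 10.97 CPM in the hypoblast- and epiblast-like class, and 22 of 32 and 45 of 50 cells had a read.

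Among 12 retinol genes, ALDH1A1 was called in hypoblast-like cells, CRABP1 and LRAT in epiblast-like cells, and STRA6, CYP26A1 and RXRA in trophectoderm-like cells. STRA6 had a read in 45 cells, 17 in the larger and 23 in the smaller trophectoderm-like cluster, and CYP26A1 in 29, with 19 and 6 there. Both thus reached the minimum of 20 cells only through the class where they are high. CRABP1 and LRAT had a read in 34 and 24 cells of all classes. The median log2 ratios were -0.39 and -0.67. ALDH1A1, which oxidises retinal to retinoic acid, was at 185.5, 39.1 and 14.3 CPM in the hypoblast-, epiblast- and trophectoderm-like class, with a read in 28, 13 and 46 cells. Its call ended without cell 84, at 1410 CPM, or 1 other cell, at 671 CPM, when the ratio to epiblast-like cells went from 4.75 to 3.54 and 3.76. STRA6, the receptor for RBP4, was at 0.0389, 0.153 and 1.78 CPM.

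Of 12 regulators known from liver and visceral endoderm, 5 were called in hypoblast-like cells, PPARGC1A in epiblast-like and NR2F2 in trophectoderm-like cells, and the median log2 ratios were 1.75 and 2.53. HNF4A, a nuclear receptor that drives apolipoprotein genes in liver, was at 40.2, 2.80 and 3.30 CPM, with a read in 31 of 32 hypoblast-like cells. GATA4 and SOX17 were at 92.2 and 110 CPM in these cells. PPARGC1A, a transcriptional coactivator, was at 6.87 CPM in epiblast-like cells against 0.607 and 0.312 CPM in the hypoblast- and trophectoderm-like class. NR2F2, a nuclear receptor, was at 180.3 CPM in trophectoderm-like cells against 14.9 and 16.4 CPM in the hypoblast- and epiblast-like class. Unlike the members and the other lists, these regulators took part in the clustering, so their difference between classes is a description. Clustering without them and without the markers gave the same classes. FOXA2, at 29.5 CPM in hypoblast-like cells and 0.0279 and 0.00775 CPM in the other classes, was in fewer than 20 cells.

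**Figure D5:**
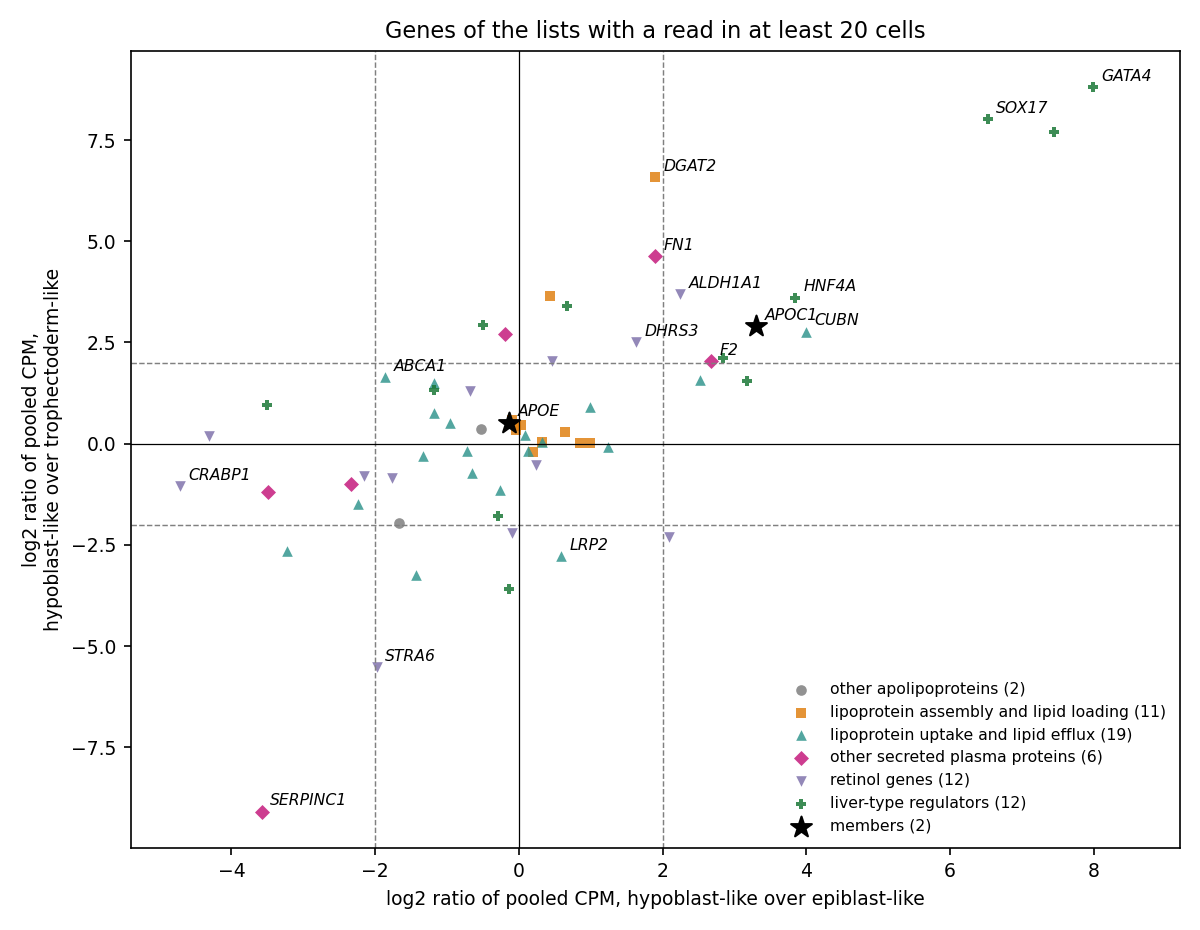
Log2 ratio of pooled CPM of hypoblast- over epiblast-like cells (horizontal) against hypoblast- over trophectoderm-like cells (vertical) for genes of the 6 lists and the 2 members with a read in at least 20 cells, with dashed lines at 4-fold. APOC1 lies in the upper right with HNF4A and ALDH1A1, APOE lies near the centre among the lipoprotein assembly genes, and LRP2 and SERPINC1 lie below.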

How the data were processed

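The authors deposited raw read counts per Ensembl gene for 217 cells of day 4 chimpanzee blastoids. The study's methods name FastP for trimming and STAR for both alignment to Pan_tro_3.0 and gene counting, where STAR counts uniquely mapped reads. The submitters' processing notes name Trim Galore 0.6.6, STAR 2.7.7a and GRCh38 instead. The counts hold no molecular identifiers, so intervals cover counting error only. The library does not mark strand. No gene lengths were used, so levels are not compared between genes.

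Symbols were attached to 18783 identifiers. The study's stated filter was applied, and the 193 cells left are not the number of cells that the study gives. Scanpy 1.11.5 normalized cells to the median total and took log1p values of genes in at least 20 cells. It computed 50 principal components and 30 neighbours, and leidenalg 0.10.2 clustered at resolution 1 with seed 0. The 9 members and 5 of the 6 pathway lists, 90 measured genes, were left out of this step. Clusters were named from lists of 10 markers for each of 3 lineages, by the mean standardized level and at least 3 markers at 1 CPM. Names rebuilt in this way may differ from the study's.

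CPM of a class is the sum of a gene's reads over that of all genes. Intervals are exact, Poisson for CPM, binomial (Clopper-Pearson) for shares and conditional binomial for ratios. For a count of 0 the text gives the share that 3 counts would make. A class with under 3 reads was set to 3 reads in the 4-fold rule. Cells were thinned to 2532312 reads, and 20 shallower cells were then left out. Named genes were the members, the list and marker genes, the 3 genes most like APOC1 and APOE among genes with a read in at least 50% of hypoblast-like cells, and the nearest measured neighbours. Cell 84 was singled out after its values were seen. The members and lists were chosen with earlier results of these data known. The steps were checked on simulated cells. Alternatives covered the cell and gene filters, the clustering, mixed cells, thinning, the fold and the summary over cells. Promoter and protein sequences were not used here. Some genes of the lists are not reported here by name.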

Additional observations from a re-analysis of the deposited data

Results flagged for a closer look

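The 24 cells left out for having too few detected genes also held reads of members, with a median of 1660767 reads per cell. Their pooled levels were 303 CPM of APOE in 23 cells, 8.88 CPM of APOC1 in 7 cells, 0.228 CPM of APOA1 in 3 cells and 0.32 CPM of APOA2 in 1 cell. MTTP was at 1.67 CPM, from 73 reads in 2 cells, of which 72 reads lay in 1 cell at 66.1 CPM, above the highest cell of any class that passed. These values drew attention because they lie outside the comparisons and above the limit of 3 reads. When the cells with at least 4000 reads were clustered, 16 of the 24 fell into the hypoblast-like and 8 into the trophectoderm-like class. With the 16 cells added, the hypoblast-like class had 48 cells. Markers back this placement only in part. PDGFRA was found in every hypoblast-like cell that passed. It had no read in the cell at 66.1 CPM of MTTP, which was placed as hypoblast-like. That cell also lacked FOXA2, SOX17 and GATA4, though it had HNF4A. The left-out cells with APOB and AFP, also placed there, lacked PDGFRA and GATA4. No left-out cell was epiblast-like, though some had NANOG but none of these endoderm genes. Whether shallow depth set the placement was not tested. No class had 4 to 10 replicate samples, so no sample was checked as lying apart.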

How the results depend on the processing

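No paired analysis was possible because all cells form 1 sample. The 5 members called higher in hypoblast-like cells were the same in the clustering and filter alternatives that kept all mixed cells. Thinning gave 4, without TTR, and the mean of cells gave 4, without MTTP. The count was 1 at 10-fold, 0 with the median of cells plus 1 CPM, 2 without cells that carry markers of a second lineage, and 2 to 5 when each hypoblast-like cell was left out. Asking for a read in at least 3 hypoblast-like cells gave 3, in at least 20 cells 1, and the median with nothing added 1, all chosen after seeing the data. The hypoblast-like class had 25 to 48 cells, but 4 without mixed cells, where the correlation of APOE with APOC1 turned to -0.40 over these 4 cells. In the other alternatives it lay between 0.46 and 0.66. List genes called in hypoblast-like cells were 8, and 13 at 2-fold. Leaving out each cell gave 5 to 8, where F2 and CUBN, in exactly 20 cells, fell under that minimum without any of their hypoblast-like cells, and ALDH1A1 was among the others that lost the call. Leaving out cell 84 or 1 other cell gave the 5. APOC1 was at 5.08 to 15.2 times the epiblast-like and 4.15 to 14.4 times the trophectoderm-like level, but at 3.88 and 3.35 times with 1 CPM added to the medians of cells. APOE ranged from 0.848 to 1.27 times the epiblast-like level, with 1.04 without the epiblast-like cell of most reads, left out after seeing the data. APOB, MTTP, TTR and AFP had few reads at this depth, so that their differences are imprecise, and 1 sample leaves the spread between blastoids unknown.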
